A study of Mus musculus with 40 samples.

Results

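The genes described here are the 36 genes of fatty acid uptake and oxidation in mouse left ventricle, taken by symbol from a normalized expression table of 22676 genes, of which 16395 were tested. All 36 were in the table, and all 36 passed the filter on low values (at least 10 in at least 5 of the 40 libraries); the lowest value of any of them in any library was 49.6. They were grouped into 7 steps: uptake (5 genes), activation (4), the carnitine shuttle with its malonyl-CoA control (6), beta-oxidation (13), electron transfer (3), lipid droplets (3), and fuel switch and uncoupling (2).

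Bulk RNA was sequenced from FVB/NJ mice of both sexes, with 5 libraries for each sex, genotype and surgery, hence 10 libraries in each of 4 conditions. The ONOFF genotype is dnOGAh, with heart-restricted, doxycycline-inducible expression of a dominant negative O-GlcNAcase, the enzyme that removes the O-GlcNAc sugar from proteins; Con denotes the control genotype, whose alleles the labels do not spell out. Both genotypes ate doxycycline food for 2 weeks and standard chow for the next 2 weeks, so that doxycycline had been withdrawn before surgery. They then had transverse aortic constriction (TAC), which narrows the aorta and overloads the left ventricle, or a sham operation, and hearts were taken 9 weeks later. Age, the promoter that drives the transgene and the number of founder lines are not given in the sources used here, and nothing in the labels says that an animal gave more than 1 library.

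The healthy adult heart draws most of its energy from long-chain fatty acids. Fatty acids are freed from lipoproteins at the vessel wall, taken up, joined to coenzyme A, carried into mitochondria as carnitine esters, and shortened by repeated rounds of dehydrogenation, hydration, a further dehydrogenation and thiolysis, with the electrons passed to the respiratory chain. Genes of this pathway are widely used as readouts of nuclear receptors of the PPAR and ERR families, and lower expression of many of them is a textbook feature of the hypertrophied rodent heart.

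Some libraries stood apart and bear on what follows. In 3 Con Sham libraries (F replicates 3 and 5, M replicate 4), 5782 to 6920 genes were at 0, against at most 4594 in the other 37. The libraries labelled Con TAC F replicates 2 and 3 held little of the female-specific RNA Xist (51.7 and 6.72, against 1123 to 3274 in the other libraries labelled female). In 14 libraries (5 Con Sham, 1 Con TAC, 5 ONOFF Sham, 3 ONOFF TAC) the atrial markers Sln, Myl4 and Myl7 summed to at least 1000. Summed over genes, the normalized values of a library came to between 35176220 and 47653987; the files hold no raw counts, so sequencing depth is unknown. Oga, the gene of the O-GlcNAcase, was higher in ONOFF Sham (3019 to 8294) than in Con Sham libraries (2644 to 3507), with a log2 difference of 0.83 (limma adjusted p = 0.000295), and its difference after TAC was 0.34 (limma adjusted p = 0.0645). From sham to TAC, the Oga values fell in ONOFF hearts (log2 change −0.56, limma adjusted p = 0.000413). They did not pass in Con hearts (−0.07, 0.803). The part of transgene RNA in the Oga values of ONOFF hearts was not tested. Nppa, a natriuretic peptide gene used as a marker of overload, rose after TAC in both genotypes. Its log2 change was 2.29 in Con and 3.71 in ONOFF hearts (limma adjusted p = 1.33e-05 and 1.66e-10). After TAC, Nppa was also higher in ONOFF than in Con hearts (log2 difference 1.60, limma adjusted p = 0.00102). The part of this difference in the changes of the fatty acid genes was not tested.

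Many fatty acid genes fell after TAC, more of them in ONOFF than in Con hearts, and no member rose in any comparison. After TAC, 28 of the 36 members were lower in ONOFF hearts, where 10.6% of all genes tested were lower and 10.7% higher. In Con hearts 15 of the 36 were lower, where 2.62% of all genes were lower and 3.17% higher. Between genotypes after TAC, 18 of the 36 were lower in ONOFF, where 3.82% of all genes were lower and 4.14% higher. Between genotypes after sham surgery no member passed, where 0.0244% of all genes were lower in ONOFF and 0.116% higher. The median log2 change over the 36 members was −0.51 for TAC in ONOFF, −0.27 for TAC in Con, −0.33 for ONOFF against Con after TAC and −0.09 for ONOFF against Con after sham surgery; over all genes tested these medians lay between −0.00072 and 0.019. A call here is a limma adjusted p below 0.05 over all 16395 genes, and every log2 change is a difference of mean log2(value + 1) with the sexes weighted equally. By step, the median log2 change after TAC in ONOFF and in Con hearts was −0.21 and −0.22 for uptake, −0.64 and −0.46 for activation, −0.44 and −0.23 for the carnitine shuttle, −0.56 and −0.25 for beta-oxidation, −0.53 and −0.29 for electron transfer, −0.51 and −0.29 for lipid droplets, and −0.95 and −0.75 for the 2 genes of fuel switch and uncoupling.

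**Figure D1:**
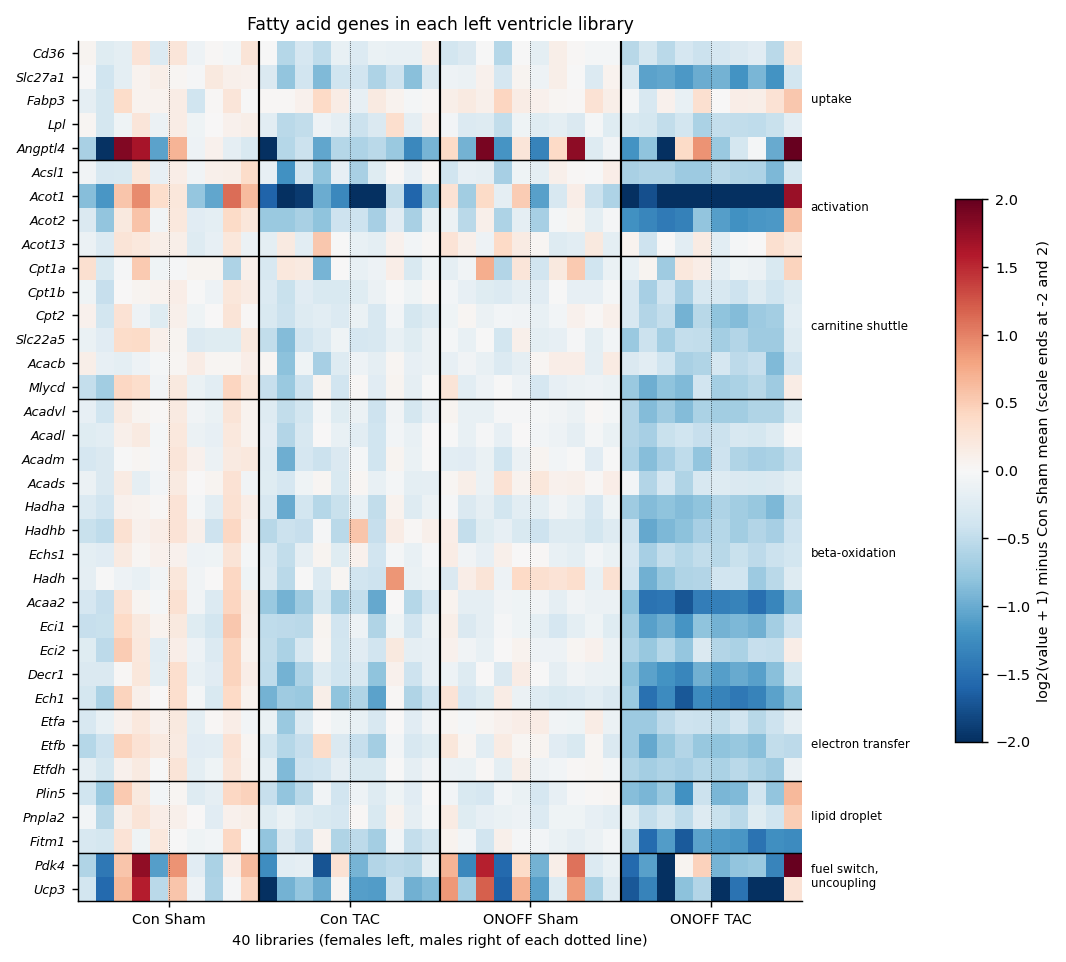
Each row is 1 member and each column 1 of the 40 libraries; colour gives log2(value + 1) minus the Con Sham mean of that gene, with females to the left and males to the right of each dotted line. Apart from M replicate 5, the ONOFF TAC columns are blue in most rows of activation, beta-oxidation and electron transfer, while Cd36, Fabp3 and Lpl stay pale, and the last column, ONOFF TAC M replicate 5, is red for Acot1, Pdk4 and Angptl4.

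The calls in ONOFF hearts held for every library left out in turn (28 to 31 members). In Con hearts the number of calls depended on a few libraries. Without Con TAC F replicate 2, 8 members were lower in Con hearts; without Con TAC M replicate 2 or without Con Sham F replicate 4 there were 9. Without the 3 Con Sham libraries with many genes at 0 there were 5, and without the 2 Con TAC libraries with little Xist also 5. Without all 5 of these libraries only Slc27a1 passed. The median change of the 36 members stayed negative, at −0.22, −0.22 and −0.17 in these 3 fits. Fits with fewer libraries also have less power for every gene, and the part of this in the lost calls was not tested. Without the 14 libraries with atrial markers, 27 members were lower after TAC in ONOFF hearts, 12 in Con hearts and 19 in ONOFF than in Con hearts after TAC. Every library of ONOFF TAC lay below every library of ONOFF Sham for 12 of the 36 members (1.42% of all genes): Acaa2, Acadm, Acadvl, Cpt2, Decr1, Ech1, Echs1, Eci1, Etfa, Etfb, Fitm1 and Hadha. No member was separated in this way between Con TAC and Con Sham (0.122% of all genes) or between ONOFF TAC and Con TAC (0.0122% of all genes).

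In bulk tissue, fewer cells of a type and less RNA per cell cannot be told apart. Of 10 cardiomyocyte markers, 6 were lower and 1 higher after TAC in ONOFF hearts (log2 change of Tnni3 −0.69, of Myl2 −0.47 and of Pln −0.42, with Actn2 higher at 0.24), 1 was lower and 1 higher after TAC in Con hearts (Pln −0.26 and Actn2 0.23), and 6 were lower in ONOFF than in Con hearts after TAC. Their median log2 change was −0.30 after TAC in ONOFF and −0.09 in Con. Their summed value ranged from 1976670 to 2843570 in ONOFF TAC, 2348370 to 4650030 in Con TAC, 2605780 to 4212260 in Con Sham and 2664380 to 3940300 in ONOFF Sham. Of 8 fibroblast markers, 5 were higher and 1 lower after TAC in ONOFF hearts (Postn 2.14, Col1a1 1.11, Dpt −0.65), 2 were higher and 1 lower in Con hearts (Postn 0.84, Lum 0.38, Dpt −0.44), and their sum was 85348 to 122343 in ONOFF TAC, 53855 to 97243 in Con TAC, 60647 to 80599 in ONOFF Sham and 51531 to 81213 in Con Sham. Of 6 macrophage markers, Adgre1 was higher after TAC in ONOFF hearts (0.64) and 0 passed in Con hearts, and of the endothelial, smooth muscle, atrial and red blood cell markers 0 passed in either. The part of these shifts in the changes of the fatty acid genes was not tested. Fat tissue also expresses Lpl, Cd36, Pnpla2 and Angptl4: the 6 adipocyte markers summed to 32.6 to 942 in Con Sham, 30.1 to 913 in Con TAC, 88.5 to 1795 in ONOFF Sham and 31.8 to 986 in ONOFF TAC, 0 of the 6 passed after TAC in either genotype or between genotypes, Adipoq was at 0 in 1 library, Lep in 3 and Retn in 2, and the brown fat marker Ucp1 was at 0 in 29 libraries.

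**Figure D2:**
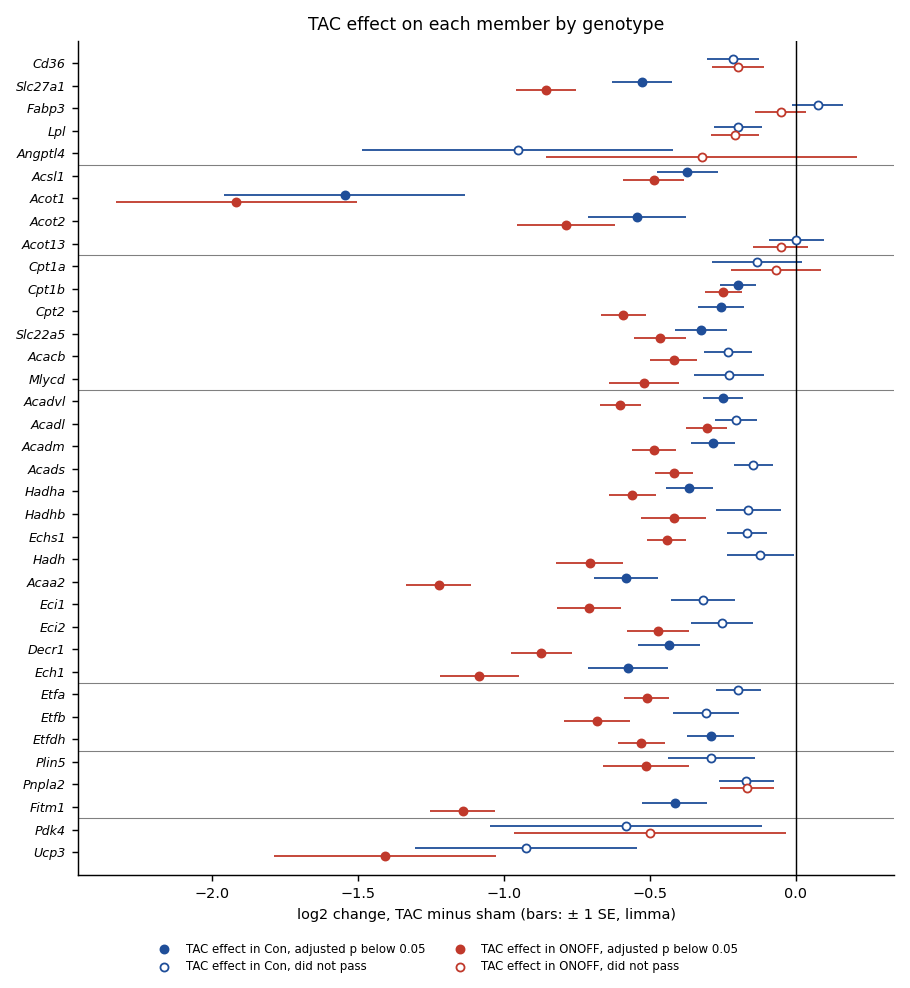
Points give the log2 change of each member from sham to TAC in Con (blue) and ONOFF (red) hearts, with bars of 1 SE from limma, filled where the adjusted p was below 0.05. In 31 of the 36 members the red point lies to the left of the blue one, and all 13 beta-oxidation genes are filled in red.

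The 2 TAC comparisons share no libraries. Of the 36 members, 34 had a negative change in both, 15 passed in both, 13 passed in ONOFF hearts alone and 0 in Con hearts alone, and 31 had the more negative change in ONOFF hearts. Of all 16395 genes tested, 5196 had a negative change in both, 347 were called lower in both and 8509 had the more negative change in ONOFF hearts. Passing in 1 genotype alone does not show that the effects differ: when the difference of the effects was itself tested, 2 members passed, Acaa2 and Fitm1, against 0.207% of all genes lower and 0.238% higher. Across the 36 members the 2 sets of changes had a Pearson correlation of 0.788 and a Spearman correlation of 0.709, against 0.562 and 0.498 across all genes tested. These describe genes measured in the same libraries, which are not independent replicates.

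Promoter sequence was examined because many members moved together. RefSeq promoters of build GRCm38.p6 (250 bases before to 50 after the start of each gene), matched by symbol, were used for 30 of the 36 members. Those of Acaa2, Acot13, Angptl4, Cpt1b, Decr1 and Lpl were not used here. The submitters' notes name another build, GRCm39, and the coordinates here belong to the RefSeq table alone. A direct repeat of AGGTCA with 1 base between, the form bound by PPAR and RXR pairs and by other nuclear receptors, was searched on both strands as AGGTCANAGGTCA with up to 2 mismatches in its 12 fixed letters. It was in the promoters of 4 of the 30 members (13.3%) and of 4.4% of 27025 genes. Member promoters on a chromosome set aside were not searched, whereas the 27025 genes were not filtered by chromosome. These promoters are shown as 100 bases ending 26 bases before the start, on the strand of the gene, with the match in capitals.
Cd36: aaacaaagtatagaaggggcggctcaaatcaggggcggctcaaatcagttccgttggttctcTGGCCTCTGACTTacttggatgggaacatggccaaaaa
Echs1: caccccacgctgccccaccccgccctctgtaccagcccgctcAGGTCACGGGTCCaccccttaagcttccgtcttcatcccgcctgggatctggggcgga
Etfa: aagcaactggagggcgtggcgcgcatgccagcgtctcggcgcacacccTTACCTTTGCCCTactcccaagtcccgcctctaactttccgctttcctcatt
Ucp3: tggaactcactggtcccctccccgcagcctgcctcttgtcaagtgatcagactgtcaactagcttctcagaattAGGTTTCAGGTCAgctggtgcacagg
These windows lie at chr5:17835922-17836021 (Cd36, minus strand), chr7:140116447-140116546 (Echs1, minus), chr9:55512269-55512368 (Etfa, minus) and chr7:100472866-100472965 (Ucp3, plus). Each match has 2 mismatches to the repeat, and in Cd36 and Etfa the repeat reads on the opposite strand. After TAC in ONOFF hearts Echs1, Etfa and Ucp3 fell while Cd36 did not pass. The extended site of the ERR family, TCAAGGTCA, which shares the letters AGGTCA with the repeat, was searched on both strands without mismatch; it was in 0 of the 30 promoters and in 0.466% of the 27025. A site this rare would be absent from most sets of 30 promoters, so the 0 cannot set the members apart from other genes. The repeat was allowed 2 mismatches and the extended site 0, so their shares cannot be compared. A match is a description of letters, not evidence of binding.

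Of the 5 uptake genes, 1 fell after TAC. Slc27a1, a transporter of the plasma membrane that also activates long-chain fatty acids, fell in both genotypes. Its normalized counts were 3872, 5289.9 and 5807 (lowest, median, highest of 10) in Con Sham, 2753, 3831 and 4175 in Con TAC, 4010.4, 4904 and 5519 in ONOFF Sham and 2219, 2511 and 4095 in ONOFF TAC. All ONOFF TAC libraries but 2, F replicate 1 and M replicate 5, lay below every Con TAC library. Those 2 overlapped Con TAC and Con Sham, and only F replicate 1 overlapped ONOFF Sham as well. The log2 change was −0.53 (SE 0.103, limma adjusted p = 0.00105, lower in 10 of 10 libraries) in Con and −0.86 (SE 0.103, limma adjusted p = 5.36e-08, lower in 10 of 10 libraries) in ONOFF hearts, and the difference between genotypes after TAC was −0.39 (SE 0.103, limma adjusted p = 0.0136, lower in 8 of 10 libraries). Here and for the other members given in full, the count of libraries is how many of the 10 TAC libraries, or of the 10 ONOFF TAC libraries for the difference between genotypes, lay below the average of sex-matched libraries of the reference condition.

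Cd36, the main fatty acid translocase of the cardiomyocyte membrane, ranged over 53489.9 to 78901 in Con Sham and 44362 to 76108 in ONOFF TAC, and all 4 conditions overlapped. Its log2 change was −0.22 in Con and −0.20 in ONOFF hearts (limma adjusted p = 0.146 and 0.112). Lpl, the lipase that frees fatty acids from lipoproteins, changed by −0.20 and −0.21 (limma adjusted p = 0.147 and 0.0646). Without ONOFF TAC M replicate 5, both Cd36 (−0.26, limma adjusted p = 0.0242) and Lpl (−0.24, 0.038) passed in ONOFF hearts. Fabp3, the cytosolic fatty acid binding protein of heart, stood at 0.07 and −0.05 (limma adjusted p = 0.697 and 0.737); 29.2% of its 50-base words also occur in Fabp3-ps1, so its values are uncertain. Angptl4, a secreted inhibitor of lipoprotein lipase, varied more than any other member: its values ran from 54.8 to 3259 in ONOFF TAC, and its changes of −0.95 (SE 0.533) and −0.32 (SE 0.533) did not pass (limma adjusted p = 0.331 and 0.736).

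In the activation step 3 of 4 genes fell in both genotypes. Acot1, a cytosolic thioesterase that splits acyl-CoA and a well-known PPAR-alpha target, had the most negative fitted change of all members in both genotypes. Its normalized counts were 218, 601 and 1071 (lowest, median, highest of 10) in Con Sham, 86.9, 161 and 350.2 in Con TAC, 229.6, 414 and 699 in ONOFF Sham and 54.9, 82.2 and 1623 in ONOFF TAC. The highest ONOFF TAC value belonged to M replicate 5 and lay above every library of the other 3 conditions, whereas the other 9 ONOFF TAC libraries were below every sham library. The log2 change was −1.55 (SE 0.414, limma adjusted p = 0.0199, lower in 10 of 10 libraries) in Con and −1.92 (SE 0.414, limma adjusted p = 0.000662, lower in 9 of 10 libraries) in ONOFF hearts. Without M replicate 5 the change in ONOFF hearts was −2.37 (limma adjusted p = 7.47e-08) and the difference between genotypes after TAC, −0.57 with it (limma adjusted p = 0.482), became −1.02 (0.0215).

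Acot2, a mitochondrial thioesterase closely related to Acot1 in sequence, had values of 1702, 3091 and 4363 in Con Sham, 1695, 1889 and 2675 in Con TAC, 1868, 2665 and 3180.4 in ONOFF Sham and 1108, 1299.6 and 4452 in ONOFF TAC. Again the highest ONOFF TAC value was M replicate 5, with the other 9 at most 1713. It changed by −0.55 (SE 0.167, limma adjusted p = 0.0443, lower in 10 of 10 libraries) in Con and −0.79 (SE 0.167, limma adjusted p = 0.000489, lower in 9 of 10 libraries) in ONOFF hearts. The call in Con hearts was lost without any of 13 single libraries. The difference between genotypes after TAC did not pass with all libraries (−0.46, limma adjusted p = 0.0833) and passed without M replicate 5 (−0.64, 0.0012). Acot1 and Acot2 share 23.5% and 24.5% of their 50-base words with each other, so reads could have been split between them. Acsl1, the main long-chain acyl-CoA synthetase of heart, changed by −0.37 in Con and −0.49 in ONOFF hearts on the log2 scale (limma adjusted p = 0.0258 and 0.00056). Acot13, a further thioesterase, did not pass (0.00097 and −0.05; limma adjusted p = 0.998 and 0.759).

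**Figure D3:**
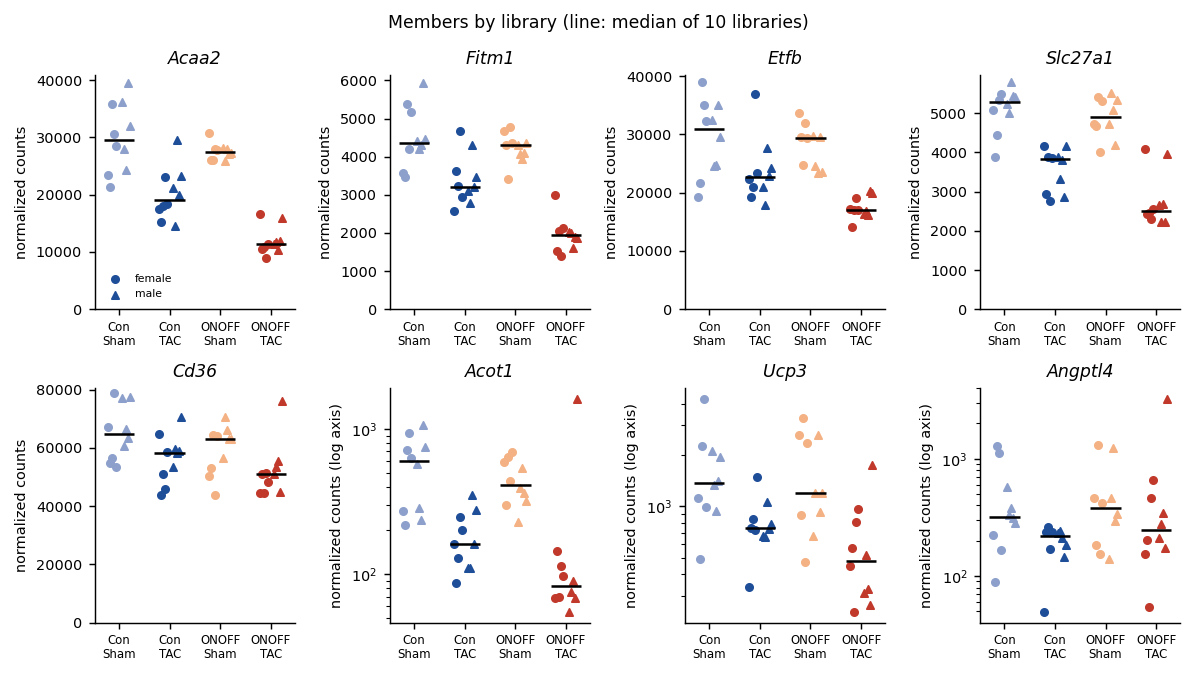
Normalized counts of 8 members in each library by condition (circles female, triangles male, line the median of 10); the lower row apart from Cd36 has a log axis. ONOFF TAC points lie below all ONOFF Sham points for Acaa2, Fitm1 and Etfb, while a single ONOFF TAC male stands far above the rest for Acot1 and Angptl4.

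Of the carnitine shuttle and its control, 5 of 6 genes fell in ONOFF hearts and 3 in Con hearts. Cpt2, which turns acylcarnitine back into acyl-CoA inside mitochondria, had values of 7853, 10238 and 12336 in Con Sham, 7536, 8399 and 9746 in Con TAC, 9075, 9756 and 10782 in ONOFF Sham and 5215, 6484 and 8706 in ONOFF TAC. All ONOFF TAC libraries were below all ONOFF Sham libraries, and 8706, the highest of them, was again M replicate 5. It changed by −0.26 (SE 0.078, limma adjusted p = 0.0414, lower in 10 of 10 libraries) in Con and −0.59 (SE 0.078, limma adjusted p = 3.1e-07, lower in 10 of 10 libraries) in ONOFF hearts, and by −0.36 (SE 0.078, limma adjusted p = 0.00222, lower in 9 of 10 libraries) between genotypes after TAC. The call in Con hearts was lost without any of 12 single libraries. Cpt1b, the muscle form of the rate-controlling carnitine palmitoyltransferase, passed with small changes of −0.20 in Con, −0.25 in ONOFF and −0.20 between genotypes after TAC (limma adjusted p = 0.0494, 0.00295 and 0.0381). Its calls in Con and between genotypes were lost without any of 30 and 12 single libraries, and 80.4% of its 50-base words occur in the overlapping transcript Gm44502, so its values are uncertain. Cpt1a, the liver form, did not pass (−0.13 and −0.07; limma adjusted p = 0.691 and 0.816).

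Slc22a5, which imports carnitine, changed by −0.33 in Con and −0.47 in ONOFF hearts on the log2 scale (limma adjusted p = 0.0208 and 0.000117); it shares 26.9% of its 50-base words with Slc22a21. Malonyl-CoA inhibits the first transferase. The gene for the enzyme that makes it in muscle, Acacb, and the gene for the enzyme that breaks it down, Mlycd, fell together in ONOFF hearts (−0.42 and −0.52; limma adjusted p = 0.000159 and 0.00114). In Con hearts neither passed (−0.23 and −0.23; limma adjusted p = 0.0829 and 0.285). After TAC, Mlycd was lower in ONOFF than in Con hearts (−0.39, limma adjusted p = 0.0343, a call lost without any of 11 single libraries), and Acacb was at −0.24 (limma adjusted p = 0.0624).

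All 13 beta-oxidation genes fell after TAC in ONOFF hearts, 6 of 13 in Con hearts, and 10 of 13 were lower in ONOFF than in Con hearts after TAC. Acaa2 encodes a mitochondrial thiolase, the type of enzyme that ends a round. Its values were 21408, 29576 and 39472 (lowest, median, highest of 10) in Con Sham and 14473, 19130.4 and 29626 in Con TAC. In ONOFF Sham they were 25912, 27510.1 and 30831, and in ONOFF TAC 8999.9, 11380.4 and 16639. The highest ONOFF TAC library was below the lowest ONOFF Sham library, and 2 ONOFF TAC libraries overlapped Con TAC. It changed by −0.58 (SE 0.11, limma adjusted p = 0.000759, lower in 10 of 10 libraries) in Con hearts, to 0.668 of the sham level, and by −1.22 (SE 0.11, limma adjusted p = 1.72e-10, lower in 10 of 10 libraries) in ONOFF hearts, to 0.428 of it. Between genotypes after TAC the log2 difference was −0.74 (SE 0.11, limma adjusted p = 4.12e-05, lower in 10 of 10 libraries). The 2 TAC effects differed by −0.64 (SE 0.156, limma adjusted p = 0.0479), a call lost in 32 of the 40 fits that left out 1 library (highest limma adjusted p 0.0922, without ONOFF TAC F replicate 4). It was also lost with no filter on low values (−0.64, 0.0644), with a random block on the library-name number (−0.62, 0.0603) and without the libraries with atrial markers (−0.65, 0.229).

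Hadha, the subunit of the trifunctional protein that hydrates and dehydrogenates long chains, had values of 44346, 59466 and 71259 in Con Sham, 28556, 45253 and 60309 in Con TAC, 44465, 50325 and 56359 in ONOFF Sham and 30718, 33412 and 40893 in ONOFF TAC. ONOFF TAC lay wholly below ONOFF Sham, and Con TAC overlapped all the other conditions. It changed by −0.37 (SE 0.0816, limma adjusted p = 0.00467, lower in 10 of 10 libraries) in Con and −0.56 (SE 0.0816, limma adjusted p = 1.8e-06, lower in 10 of 10 libraries) in ONOFF hearts, with −0.39 (SE 0.0816, limma adjusted p = 0.00181, lower in 10 of 10 libraries) between genotypes after TAC. Its partner subunit Hadhb, the thiolase of the complex, passed in ONOFF hearts (−0.42, limma adjusted p = 0.00485) and not in Con hearts (−0.16, 0.444), and was lower in ONOFF after TAC (−0.51, 0.0023). Of its 50-base words 57.5% occur in other genes, mostly Gm13910, so its values are uncertain.

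The 4 acyl-CoA dehydrogenases open each round for chains of falling length. In ONOFF hearts Acadvl (very long chains) changed by −0.60, Acadl (long) by −0.31, Acadm (medium) by −0.49 and Acads (short) by −0.42 (limma adjusted p = 2.66e-08, 0.00131, 5.48e-06 and 8.27e-06). In Con hearts Acadvl (−0.25, limma adjusted p = 0.0238) and Acadm (−0.28, 0.0186) fell, and Acadl (−0.21, 0.0781) and Acads (−0.15, 0.208) did not pass. After TAC, Acadvl (−0.41) and Acadm (−0.34) were lower in ONOFF than in Con hearts, while Acadl (−0.19) and Acads (−0.18) did not pass (limma adjusted p = 0.0002, 0.00322, 0.104 and 0.0976). Echs1, the short-chain hydratase, and Hadh, the short-chain hydroxyacyl dehydrogenase, fell in ONOFF hearts (−0.44 and −0.71; limma adjusted p = 3.76e-06 and 1.11e-05) and were lower there than in Con hearts after TAC (−0.32 and −0.44; limma adjusted p = 0.00169 and 0.012). In Con hearts they did not pass (−0.17 and −0.12; 0.136 and 0.605).

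The 4 auxiliary enzymes handle double bonds that the main cycle cannot. Ech1, a dienoyl-CoA isomerase, and Decr1, the 2,4-dienoyl-CoA reductase, fell in both genotypes, with log2 changes of −1.08 and −0.87 in ONOFF (limma adjusted p = 1.32e-07 and 5.81e-08) and −0.57 and −0.44 in Con hearts (0.00807 and 0.00893). Both were also lower in ONOFF than in Con hearts after TAC (−0.67 and −0.54; limma adjusted p = 0.00132 and 0.000862). Of the enoyl-CoA isomerases, Eci1 and Eci2 fell in ONOFF hearts (−0.71 and −0.47; limma adjusted p = 4.87e-06 and 0.00101) and did not pass in Con hearts (−0.32 and −0.25; 0.0778 and 0.161). After TAC, Eci1 was lower in ONOFF than in Con hearts (−0.55, 0.0011) and Eci2 did not pass (−0.25, 0.169).

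All 3 electron transfer genes fell in ONOFF hearts and were lower there than in Con hearts after TAC. Etfa and Etfb encode the 2 subunits of the flavoprotein that takes electrons from the acyl-CoA dehydrogenases. Etfa had values of 21814, 28358 and 31519 in Con Sham, 16416, 24889 and 27646 in Con TAC, 25246, 28118 and 30217 in ONOFF Sham and 16551, 19816 and 24111 in ONOFF TAC. It changed by −0.20 (SE 0.0773, limma adjusted p = 0.125, lower in 9 of 10 libraries) in Con hearts, which did not pass, by −0.51 (SE 0.0773, limma adjusted p = 3.48e-06, lower in 10 of 10 libraries) in ONOFF hearts and by −0.29 (SE 0.0773, limma adjusted p = 0.0156, lower in 10 of 10 libraries) between genotypes after TAC. Without the libraries with atrial markers the genotype difference did not pass (−0.27, limma adjusted p = 0.0606).

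Etfb had values of 19287, 30962 and 39035 in Con Sham, 17874, 22618 and 36978 in Con TAC, 23328, 29467 and 33627 in ONOFF Sham and 14080.1, 17014 and 20343 in ONOFF TAC. For both subunits ONOFF TAC was wholly below ONOFF Sham, and 1 Con TAC library, F replicate 4, stood at the level of the highest sham libraries for Etfb. Etfb changed by −0.31 (SE 0.113, limma adjusted p = 0.0967, lower in 9 of 10 libraries) in Con hearts, which did not pass, by −0.68 (SE 0.113, limma adjusted p = 1.47e-05, lower in 10 of 10 libraries) in ONOFF hearts and by −0.42 (SE 0.113, limma adjusted p = 0.0152, lower in 10 of 10 libraries) between genotypes after TAC. The change in Con hearts passed without Con TAC F replicate 4 (−0.39, limma adjusted p = 0.019), without Con Sham F replicate 1 (−0.38, 0.0291), with quantile normalization (−0.31, 0.0193) and with a replicate block (−0.31, 0.048). Of its 50-base words 57.7% occur in Gm45233, so its values are uncertain. Etfdh, which hands the electrons to ubiquinone, fell in Con (−0.29, limma adjusted p = 0.0235) and ONOFF hearts (−0.53, 4.01e-06), with −0.28 between genotypes after TAC (0.0236, a call lost without ONOFF TAC M replicate 4, Con TAC M replicate 3 or Con TAC F replicate 5).

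Among the lipid droplet genes Fitm1, an endoplasmic reticulum protein of muscle that helps droplets form, changed most. Its values were 3474, 4360.2 and 5929 (lowest, median, highest of 10) in Con Sham, 2584, 3214 and 4673 in Con TAC, 3414, 4307 and 4775 in ONOFF Sham and 1393, 1945 and 2992 in ONOFF TAC. All ONOFF TAC libraries lay below all sham libraries of both genotypes. It changed by −0.42 (SE 0.111, limma adjusted p = 0.0185, lower in 9 of 10 libraries) in Con hearts, to 0.75 of the sham level, and by −1.14 (SE 0.111, limma adjusted p = 8.83e-10, lower in 10 of 10 libraries) in ONOFF hearts, to 0.453 of it, with −0.81 (SE 0.111, limma adjusted p = 1.32e-05, lower in 10 of 10 libraries) between genotypes after TAC. The 2 TAC effects differed by −0.73 (SE 0.157, limma adjusted p = 0.0306), a call lost in 11 of the 40 fits that left out 1 library (ONOFF Sham F replicates 2 and 4 and M replicate 1, ONOFF TAC F replicates 4 and 5 and M replicate 3, Con Sham M replicates 2 and 5, Con TAC F replicate 4 and M replicates 3 and 5) and without the 14 libraries with atrial markers. Plin5, a droplet coat protein that ties droplets to mitochondria, fell in ONOFF hearts (−0.51, limma adjusted p = 0.0097) and did not pass in Con hearts (−0.29, 0.275). Pnpla2, the lipase that opens triglyceride breakdown, was at −0.17 in Con and −0.17 in ONOFF hearts (limma adjusted p = 0.317 and 0.218); without ONOFF TAC M replicate 5 it passed in ONOFF hearts (−0.26, 0.0127).

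The 2 remaining genes set fuel choice and coupling. Ucp3, an uncoupling protein of the inner mitochondrial membrane that rises with fatty acid supply, had values of 490.2, 1377 and 4286 in Con Sham, 338, 743 and 1481 in Con TAC, 469, 1205 and 3302 in ONOFF Sham and 241, 481 and 1739 in ONOFF TAC. Every pair of conditions overlapped. It changed by −0.92 (SE 0.381, limma adjusted p = 0.151, lower in 9 of 10 libraries) in Con hearts, which did not pass, and by −1.41 (SE 0.381, limma adjusted p = 0.00636, lower in 9 of 10 libraries) in ONOFF hearts. Pdk4, the kinase that shuts off pyruvate dehydrogenase and so spares glucose, ranged over 5885 to 54327 in Con Sham and 3779 to 94448 in ONOFF TAC. Its changes of −0.58 (SE 0.466) and −0.50 (SE 0.466) did not pass (limma adjusted p = 0.531 and 0.508).

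Members differed widely in how much they varied between libraries of 1 group. The residual SD of log2(value + 1) within the 8 groups was 1.22 for Angptl4, 1.05 for Pdk4, 0.96 for Acot1 and 0.872 for Ucp3, which placed them between the 85.1 and 95.6 percentiles of all genes tested. The median over the 36 members was 0.241, against 0.288 over all genes, and the lowest was Cpt1b at 0.131. The highest library was often the same for the 4 most variable genes: ONOFF TAC M replicate 5 held the highest ONOFF TAC value of all 4, and ONOFF Sham F replicate 3 held the highest ONOFF Sham value of Angptl4 (1318), Pdk4 (46541) and Ucp3 (3302). Con Sham F replicate 4 held the highest Con Sham value of Pdk4 (54327) and Ucp3 (4286).

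**Figure D4:**
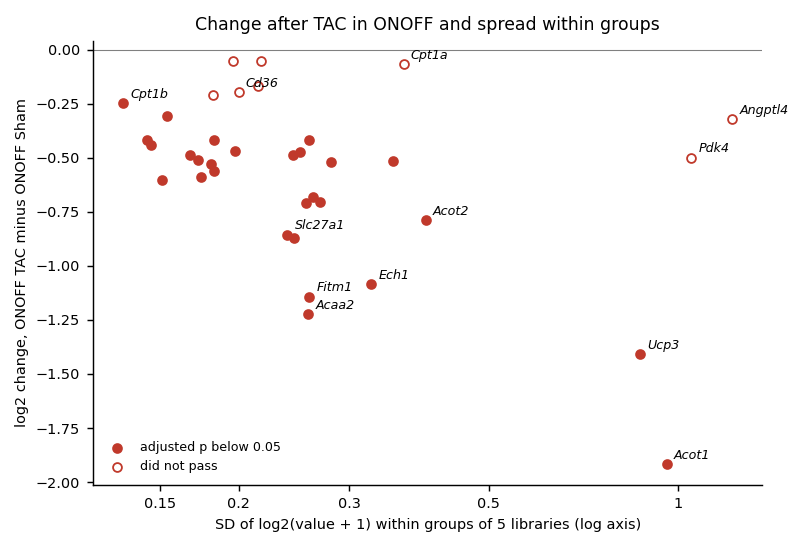
Each point is 1 member, with the SD of log2(value + 1) within groups of 5 libraries on a log axis and the log2 change from ONOFF Sham to ONOFF TAC on the other. Angptl4 and Pdk4, with SDs of 1.22 and 1.05, did not pass at −0.32 and −0.50, while Cpt1b passed at −0.25 with an SD of 0.131.

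Summarised per library as the median over the 36 members of log2(value + 1) minus the Con Sham mean, the hearts ran from −0.83 to −0.21 in ONOFF TAC (median −0.62), −0.58 to −0.01 in Con TAC (−0.28), −0.17 to 0.04 in ONOFF Sham (−0.11) and −0.37 to 0.25 in Con Sham (0.03). All ONOFF TAC libraries but 1 lay below 9 of the 10 Con TAC libraries. The exception, M replicate 5, had the highest ONOFF TAC value in 25 of the 36 members. Within Con TAC, F replicate 2, labelled female with little Xist, had the lowest value in 21 members, and within Con Sham, F replicate 2 had the lowest in 25. Atrial markers summed to at least 1000 in libraries at either end of this summary. These were the lowest of Con Sham (F replicate 2), ONOFF Sham (M replicate 1) and ONOFF TAC (F replicate 2). The highest of ONOFF Sham (F replicate 1) and ONOFF TAC (M replicate 5) were also among them. The lowest of Con TAC (F replicate 2) and the highest of Con Sham (M replicate 4) and Con TAC (M replicate 3) were not. The median of all genes tested stayed between −0.03 and 0.04 in every library.

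**Figure D5:**
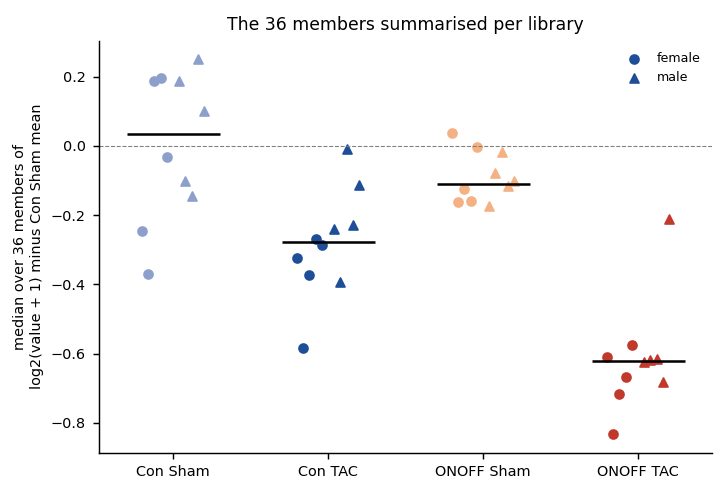
Each point is 1 library: the median over the 36 members of log2(value + 1) minus the Con Sham mean of each gene, by condition, with circles for females, triangles for males and a line at the median of 10. ONOFF TAC lies at −0.83 to −0.58 apart from M replicate 5 at −0.21, and Con Sham spreads more widely than ONOFF Sham.

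The changes after TAC were mostly negative in both sexes. After TAC in ONOFF hearts the change was negative in 36 of 36 members in females and 33 of 36 in males, with medians of −0.59 and −0.48; in Con hearts these were 34 and 35 of 36, with medians of −0.31 and −0.23. Between genotypes after TAC it was negative in 34 members in females and 31 in males (medians −0.27 and −0.36), and after sham surgery in 18 and 31 (0.000698 and −0.15), a difference between the sexes that was not tested. No gene of the 16395 passed a test of a sex difference of the TAC effect or of the genotype effect after TAC; in limma at an unadjusted p below 0.05 there were 540 genes and 1 member (Slc22a5) for TAC in Con, 862 genes and 1 member (Acot13) for TAC in ONOFF, and 656 genes and 2 members (Fabp3 and Acacb) for genotype after TAC. The female values for Con TAC rest on 3 libraries once the 2 with little Xist are left out. The change after TAC in Con females was then negative in 34 members (median −0.22), and the difference between genotypes after TAC in females in 33 (median −0.37). The tests of a sex difference then called 0 genes as well, with 545 genes and 0 members at an unadjusted limma p below 0.05 for TAC in Con and 648 genes and 1 member for genotype after TAC. Averaged over the 4 conditions, 2 members were lower in females than in males, where 1.99% of all genes were lower and 1.99% higher: Acadm (−0.22, limma adjusted p = 0.013) and Cpt1b (−0.15, 0.0472). Without the 2 libraries labelled female that held little Xist, Acadm still passed (−0.19, 0.0225) and Cpt1b did not (−0.14, 0.0805).

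In sham hearts no member passed between genotypes. The 36 log2 differences ran from −0.26 (Hadhb, limma adjusted p = 0.487) to 0.15 (Fabp3, 0.662), and 30 were negative, against 18 without the 3 Con Sham libraries with many genes at 0. At an unadjusted limma p below 0.05 there were 4 members: Lpl (−0.22, adjusted p = 0.382), Cpt1b (−0.15, adjusted p = 0.462), Hadha (−0.19, adjusted p = 0.48), Hadhb (−0.26, adjusted p = 0.487). That is 11.1% of the members, beside 1415 (8.63%) of the 16395 genes. The median over members was −0.09 with all libraries and −0.0074 without those 3.

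Related pathways give the setting. Beside the counts that follow, 10.6% of all genes tested were lower and 10.7% higher after TAC in ONOFF hearts. In Con hearts these shares were 2.62% and 3.17%, and between genotypes after TAC 3.82% and 4.14%. Of 18 genes of the tricarboxylic acid cycle, 17 were lower after TAC in ONOFF hearts and 4 in Con hearts (Cs −0.46 and −0.33, Idh3a −0.42 and −0.26), and 9 were lower in ONOFF than in Con hearts after TAC (Idh2 −0.42, Sdha −0.32). Of 20 other genes of mitochondrial fatty acid and propionate oxidation, 14 were lower and 1 higher after TAC in ONOFF hearts (Acat1 −0.39, Pccb −0.47; Acot9, named after its value was seen, 0.31), 1 was lower in Con hearts (Acss1 −0.41) and 6 were lower between genotypes after TAC. The interaction passed for Acat1, an acetoacetyl-CoA thiolase (−0.34, limma adjusted p = 0.0425). Of 20 peroxisomal genes, 11 were lower after TAC in ONOFF hearts (Pex11a −0.70, Crat −0.53), 2 in Con hearts (Ehhadh −0.55, Crat −0.28) and 2 between genotypes after TAC; 0 were higher.

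Of 19 genes of triglyceride synthesis and breakdown, 5 were lower and 1 higher after TAC in ONOFF hearts (Gk, named after its value was seen, 0.39), 1 was lower in Con hearts, and 4 were lower in ONOFF than in Con hearts after TAC. Fitm2, the relative of Fitm1 with the same role, fell in both genotypes (−0.48 in Con and −0.74 in ONOFF; limma adjusted p = 0.000545 and 4.32e-08), and Dgat2, which makes triglyceride, was lower in ONOFF after TAC (−0.68, 0.00222). Of 14 other uptake and activation genes, 2 were lower and 1 higher after TAC in ONOFF hearts (Dbi −0.40, Lmf1 −0.25, Acbd3 0.22), 0 passed in Con hearts, and Vldlr was lower in ONOFF after TAC (−0.38). Of 12 genes of fatty acid synthesis, 0 passed after TAC in either genotype, and Fads1 was higher in ONOFF after TAC (0.26). The counts of the uptake and activation list and of the synthesis list lie near the shares of all genes tested. They are therefore not a result about these lists.

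Of 15 regulators, 5 were lower after TAC in ONOFF hearts, 1 in Con hearts and 2 between genotypes after TAC. Ppara, the nuclear receptor that drives many of the 36 genes, ranged over 123 to 736 in Con Sham and 132 to 569.6 in ONOFF TAC and did not pass (0.03 and −0.16; limma adjusted p = 0.974 and 0.813). Its coactivator gene Ppargc1a fell in ONOFF hearts (−0.38, 0.0269) and did not pass in Con hearts (−0.28, 0.196). Rxrg, a partner of PPAR receptors, was lower after TAC in ONOFF hearts (−0.54) and lower in ONOFF than in Con hearts after TAC (−0.42). Klf15, a further regulator of cardiac lipid use, fell in Con (−0.38) and in ONOFF hearts (−0.51).

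Within the TAC conditions, libraries with more Nppa showed no relation to Acaa2, Hadha or Acot1 that passed the adjustment. Over the 10 Con TAC libraries the Pearson and Spearman correlations of log2 values with Nppa were −0.216 and −0.152 for Acaa2 (permutation p = 0.55 and 0.681), −0.33 and −0.333 for Hadha (0.359 and 0.347) and −0.601 and −0.576 for Acot1 (0.0683 and 0.0888). Over the 10 ONOFF TAC libraries they were −0.329 and −0.285 (permutation p = 0.354 and 0.428) for Acaa2, 0.0783 and −0.0182 (permutation p = 0.833 and 0.973) for Hadha and −0.141 and −0.139 (permutation p = 0.758 and 0.708) for Acot1. After Benjamini-Hochberg adjustment over the 6 relations the smallest p was 0.41 for Pearson and 0.533 for Spearman. Without the 2 libraries farthest from the median of Nppa the Pearson correlations in Con TAC were −0.525, −0.835 and −0.605 for Acaa2, Hadha and Acot1, so that the result for Hadha rests on which libraries are kept (permutation p = 0.00763 without these 2). In ONOFF TAC they were −0.351, −0.143 and −0.296. These values pool sexes that differed in Nppa, whose mean was 106030 in female and 182456 in male ONOFF TAC libraries, and 43464 and 53686 in Con TAC. After subtraction of the mean of each sex the Pearson correlations were −0.33, −0.642 and −0.673 in Con TAC for Acaa2, Hadha and Acot1 (exact permutation p within sexes 0.372, 0.0705 and 0.0453) and −0.579, −0.347 and −0.346 in ONOFF TAC (0.129, 0.205 and 0.167). All 6 were negative, and the smallest p adjusted over them was 0.211.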

How the data were processed

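Left ventricle RNA from 40 FVB/NJ mouse libraries was sequenced by the authors after a stranded library preparation, per the labels' protocols. The submitters' processing notes name FastQC 0.11.7, MultiQC 0.8, STAR 2.7.3a, Salmon, DESeq2, R 4.3.1 and build GRCm39, with no order or settings. The authors deposited 1 normalized count signal per gene and library, and whole reads could not be recovered from it. Since the file holds no counts, the test was limma 3.58.1 (R 4.3.3, statmod 1.5.0) with an intensity trend and robust variances on log2(value + 1). The fit took the 16395 of 22676 genes that reached 10 in 5 or more libraries. The 8 groups (genotype, surgery, sex) had a mean each; contrasts weighted the sexes equally, tests were two-sided, and p-values were Benjamini-Hochberg adjusted over all genes within a contrast. A gene was called at an adjusted p below 0.05.

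Groups come from the sample titles and characteristics. Nothing in the labels ties a library to a named animal, so p-values measure the spread between these libraries. Depth is unknown, and scaling by the authors cannot be undone, which could affect levels between libraries. The fit was tested on simulated data with independent normal noise in each gene and library and shifts planted in ONOFF TAC. That simulation held no outlying libraries, so it does not test the calls against the outlying libraries found here. Shared 50-base words were counted in GENCODE M21 transcripts.

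Given in full are Acaa2, Hadha and Acot1, and in each step the member with the smallest p for TAC in ONOFF and for genotype after TAC. Other genes are named from pathway lists by smallest p, up to 4 a list. Members, lists and tests were chosen with earlier results of these data known. The alternatives were other pseudocounts, filters, scalings, weights, blocks, smaller fits and libraries left out; omission of libraries with atrial markers and, for comparisons by sex, of the libraries with little Xist, and subtraction of the sex means from the Nppa relations, were chosen after seeing the data.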

Additional observations from a re-analysis of the deposited data

Results flagged for a closer look

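In groups of 5 libraries, 11 end values of the fully described members lay farther from the rest of their group than Dixon's 95% limit allows. There were 80 checks, 1 for each such member in each of the 8 groups, on values without log. The members were measured in the same libraries, so the checks are not independent. The 11 therefore cannot be set against a share expected by chance. The 11 end values fell in 6 libraries. In ONOFF TAC M replicate 5 they were Acaa2 (15928, nearest other male 11884), Acot1 (1623, nearest 89.7), Slc27a1 (3958, nearest 2694), Acot2 (4452, nearest 1368), Cpt2 (8706, nearest 6271) and Ucp3 (1739, nearest 517), all of them high. Slc27a1 was high in ONOFF TAC F replicate 1 (4095, nearest 2562), Acot2 in ONOFF TAC F replicate 5 (1713, nearest 1278), Etfb in Con TAC F replicate 4 (36978, nearest 23457), Fitm1 in Con Sham M replicate 4 (5929, nearest 4453) and Ucp3 in ONOFF Sham M replicate 3 (2606, nearest 1205). Without ONOFF TAC M replicate 5, 31 members were lower after TAC in ONOFF hearts in place of 28. With all libraries, the interaction term of the fit passed for Acaa2 (log2 difference of the effects −0.64) and Fitm1 (−0.73). These calls were lost in 32 and 11 of the 40 fits that left out 1 library, and both were lost without the libraries with atrial markers.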

How the results depend on the processing

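The number of members lower after TAC in ONOFF hearts was 27 to 31 under every alternative run, and the number lower in ONOFF than in Con hearts after TAC was 15 to 27 (15 to 23 with 1 library left out). The number lower after TAC in Con hearts, 15, became 8 in a fit of only the groups compared, 5 without the 3 Con Sham libraries with many zeros, 5 without the 2 Con TAC libraries with little Xist, 1 without all 5, and 8 to 16 with 1 library left out. The number with a differing TAC effect, 2, became 1 with no filter, 13 with library weights, 1 with a random block on the library-name number, 4 without the libraries with little Xist, 11 without those 5, 0 without the libraries with atrial markers, and 0 to 4 with 1 library left out; the cause was not tested. With a replicate block the counts were 19 (Con), 28 (ONOFF), 0 (genotype, sham), 21 (genotype, TAC) and 2 (difference). Same-numbered libraries had a median correlation of deviations of 0.00436, against 0.00216 for other numbers, and 11 of 40 correlated best with their own number. These values show no clear pairing by number but cannot exclude one. Of the calls, 7 of 15 in Con, 28 of 28 in ONOFF, 15 of 18 between genotypes after TAC and 0 of 2 differences survived every single omission.

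In sham hearts, 18 of the 36 genotype differences were negative without the 3 Con Sham libraries with many zeros, against 30 with them, and none passed. In the other contrasts only changes that had not passed changed sign. For TAC in Con, Acot13 was −0.02075 (quantile normalization), −0.005863 (random block), −0.07765 (atrial libraries omitted) and −0.05915 to 0.03566 with 1 library left out, and Fabp3 was −0.01146 (quantile) and −0.02663 (atrial). For TAC in ONOFF, Cpt1a was −0.1445 to 0.02049 with 1 left out. For genotype after TAC, Acot13 was 0.03334 (quantile), 0.04933 (weights), 0.001636 (random block) and −0.04631 to 0.04849, Pdk4 was −0.4419 (weights), −0.0954 (atrial) and −0.3096 to 0.1956, Cpt1a was −0.08442 (weights) and −0.03494 to 0.1377, and Fabp3 was −0.001057 (without the libraries with little Xist, or the 5) and −0.01704 to 0.06314. For the difference of the TAC effects, Pnpla2 was −0.007374 (TMM), −0.06627 (weights), −0.05344 (3 omitted), −0.03341 (5 omitted) and −0.08754 to 0.06841, Cd36 was −0.06919 (weights), −0.02972 (little Xist), −0.06892 (atrial) and −0.04003 to 0.05607, Pdk4 was −0.5149 (weights) and −0.269 to 0.2821, Cpt1a was −0.08804 (weights) and −0.0293 to 0.1539, Lpl was 0.001576 (3 omitted) and −0.05081 to 0.04482, Acot13 was 0.05423 (atrial) and −0.08822 to 0.006577, Angptl4 was −0.03099 (weights), and Cpt1b was 0.002708 (atrial). The correlation of Nppa with Hadha in ONOFF TAC was −0.143 without the 2 farthest libraries and −0.164 to 0.193 with 1 left out. The files hold no counts, so the limit set by depth is unknown.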
